A study of Bos taurus with 8 samples.

Results

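The proteasome genes of bovine mammary gland were followed between the full and the emptied state of the lactating gland. Members were all genes whose single annotated symbol begins with PSMA to PSMG and a number, and 40 of the 9155 genes with a symbol of their own on the array met this. They comprised 16 core genes (6 PSMA and 10 PSMB), 19 regulatory genes (6 PSMC, 10 PSMD and 3 PSME) and 5 in neither class. These 5 were PSMF1, PSMG1, PSMG2, PSMG3 and PSME3IP1, which shares the prefix but encodes an interactor of PSME3 and no subunit. All 40 entrez numbers were found in the RefSeq annotation ARS-UCD2.0 with unchanged symbols. PSMA2, PSMA8, PSMB11, PSMD3, PSMD7, PSMD8, PSMD12, PSME3 and PSMG4 were not analysed here.

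The study sampled the udder of 4 lactating Holstein cows (Bos taurus) by biopsy, to follow gene expression as milk accumulates. Each animal gave 1 full sample, 12 h after milk removal, and 1 empty sample, 0 h after it. No treatment or genotype is named, and all animals share breed and lactation. Each of the 8 RNA samples was measured on 1 single-colour array of bovine probe sets. Anything else that changed between the 2 biopsies of a cow cannot be told apart from milk filling.

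The proteasome is the barrel-shaped protease that degrades proteins tagged with ubiquitin. Its core particle stacks rings of alpha subunits (PSMA), which gate the entrance, on rings of beta subunits (PSMB), of which PSMB5, PSMB6 and PSMB7 carry the proteolytic sites. The regulatory particle caps the core, recognises and unfolds substrates with a ring of ATPases (PSMC), and removes ubiquitin with non-ATPase subunits (PSMD). Interferon-gamma induces PSMB8, PSMB9 and PSMB10, which replace PSMB5, PSMB6 and PSMB7 in the immunoproteasome and change the peptides offered to MHC class I. In secretory cells such as mammary alveolar epithelium the proteasome also clears misfolded proteins returned from the endoplasmic reticulum.

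The luminal marker list (10 of 10 genes measured, caseins and keratins among them) had a mean log2 level of 12.54 to 12.86 in full and 12.52 to 12.73 in empty libraries. Among the arrays, those of the full gland in cows 2 and 4 were least like the rest, with a median r of 0.969 and 0.9753, and the remaining 6 had 0.9856 or more. In cow 2 the 5′ minus 3′ difference of all 5 platform controls (GAPD, EF1A, cyclophilin, EIF4E and GST) was lower in the full library than in the empty one, by log2 differences of -1.53 to -0.58. In cow 3 the same quantity was higher in full gland by 0.10 to 0.59, in cow 4 by 0.0048 to 0.31, and in cow 1 it differed by -0.01 to 0.21. A lower 5′ signal is a usual sign of shorter RNA or cDNA, since labelling starts at the poly(A) tail.

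No proteasome gene passed the comparison of full with empty gland. Of 40 members 0 had an adjusted p under 0.05 in limma with cow as a block, where 0% of all probe sets passed, and 0 had an unadjusted p under 0.05, against 2.8% of all genes. The mean log2 differences, full minus empty, ran from -0.36 for PSMB3 to 0.19 for PSMB9, with a median of -0.02 over the members and -0.0036 over all genes. Of the members 25 were lower and 15 higher on average, a split that moved with single animals, with 30 lower when cow 4 was left out and 18 when cow 1 was. The 95% interval of the difference lay within 1.5-fold either way for 36 members, against 87.9% of all genes, and within 2-fold for 39, against 98.3%. PSMB3, PSMB7, PSMC3 and PSMD13 had intervals that reached past 1.5-fold, and that of PSMB3 reached past 2-fold, at -1.24 to 0.53.

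**Figure D1:**
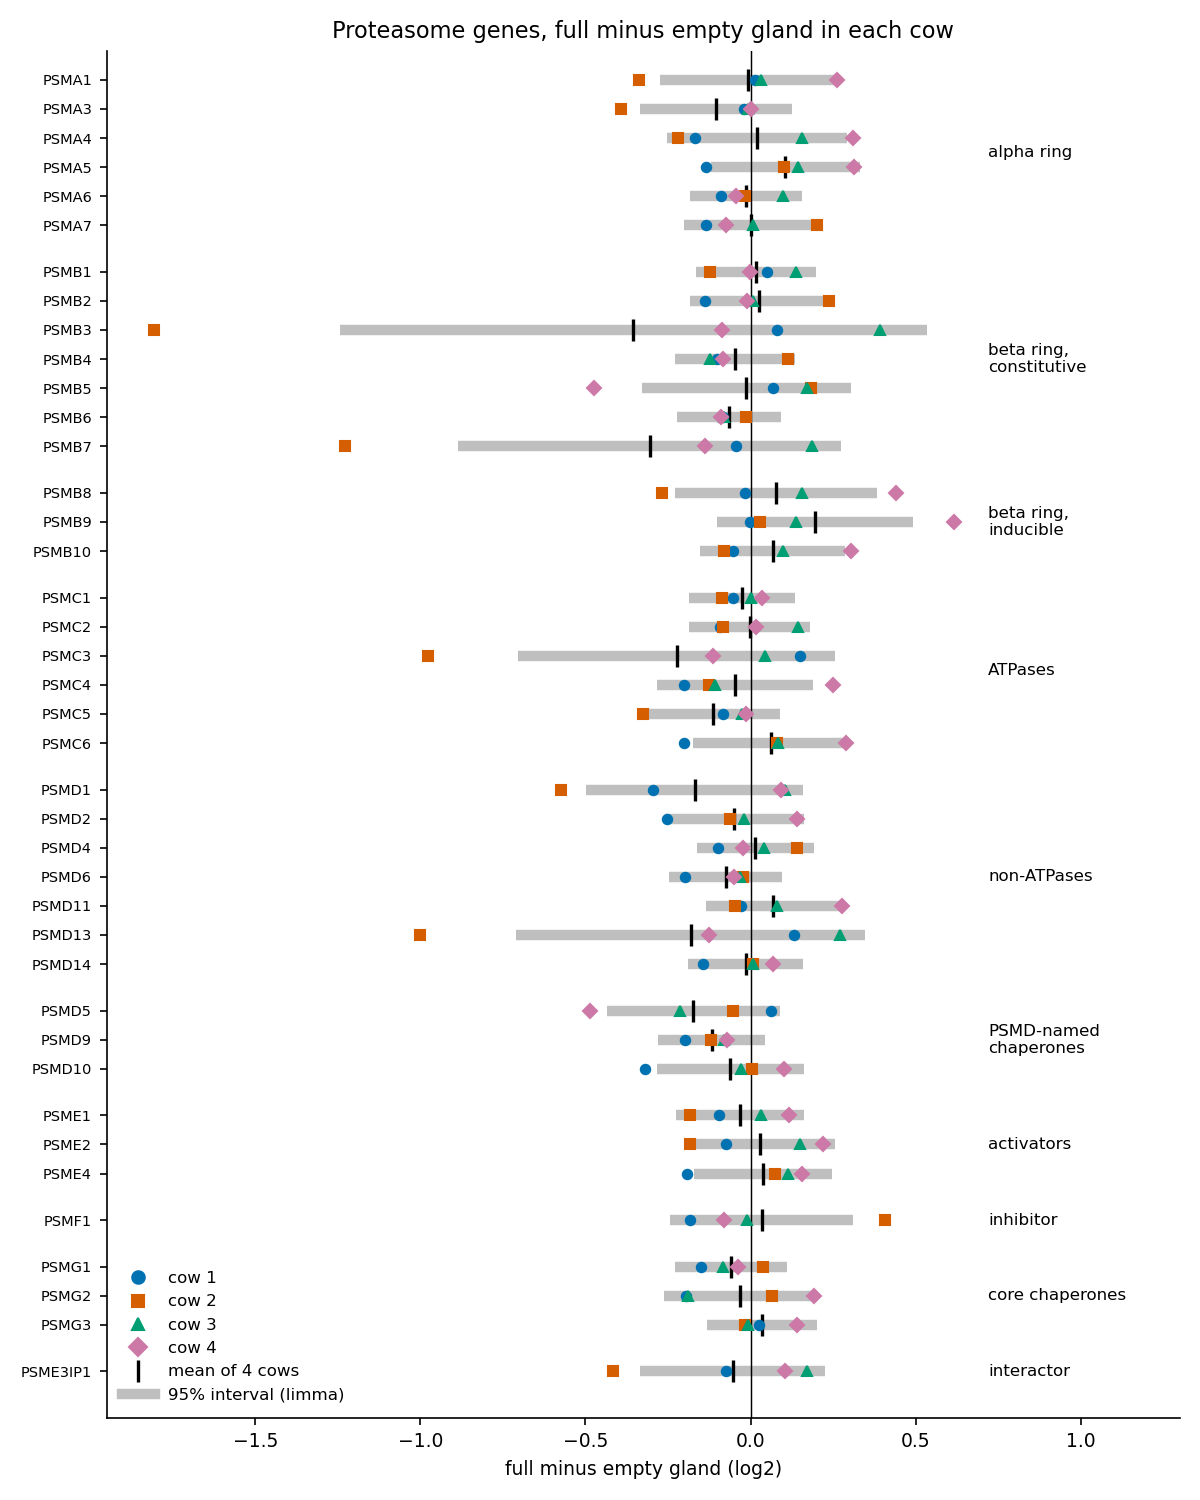
Full minus empty log2 difference of each of the 40 members in each of 4 cows (coloured points), with the mean (black tick) and limma's 95% interval (grey bar), grouped by role. Most points lie within 0.5 log2 of 0, and the exceptions are cow 2 for PSMB3, PSMB7, PSMC3, PSMD13 and PSMD1, and cow 4 for PSMB9.

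The direction was shared by all 4 cows for 4 members, PSMB6, PSMC5, PSMD6 and PSMD9, each lower in full gland. This share of 4 in 40 stands beside 7.11% of all genes that were lower in every animal. Of the members 0 were higher in every animal, against 3.59% of all genes. PSMD9, a chaperone that assembles the ATPase ring, was at 9.17, 9.04, 8.99 and 9.03 in the full and at 9.37, 9.15, 9.07 and 9.10 in the empty glands of cows 1 to 4. Each full library was thus below its own empty partner, but the ranges of the groups overlapped. Its mean difference of -0.12 ± 0.07 log2 (moderated SE from limma over 4 cows, used for all SEs of mean differences) had the smallest unadjusted p of all members, and the adjusted p = 0.993 in limma did not pass.

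No gene of the alpha ring, whose N-termini close the pore of the barrel, passed the test. Of the 6 measured genes 3 were lower and 3 higher, with a median of -0.0039. PSMA5 had the largest mean in this ring, at 0.11 ± 0.09, and the differences in cows 1 to 4 were -0.14, 0.10, 0.14 and 0.31. Its full libraries lay at 10.33, 10.48, 10.28 and 10.43 and its empty ones at 10.46, 10.37, 10.13 and 10.12, so the groups overlapped. PSMA3 differed by -0.11, with -0.39 in cow 2 and between -0.02 and 0.00071 in the remaining animals. PSMA1 and PSMA4 were both lower in cow 2 (-0.34 and -0.22) and both higher in cow 4 (0.26 and 0.31), and averaged -0.0078 and 0.02. PSMA6 averaged 11.81 ± 0.04 across full libraries and 11.82 ± 0.06 across empty ones (SD, n = 4). PSMA7 averaged 11.08 ± 0.12 and 11.08 ± 0.06 in the same order, with the full library of cow 2 highest at 11.26.

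Among the 7 constitutive beta genes 5 were lower and 2 higher on average, with a median of -0.05. Of all genes 51.4% were lower. PSMB3, a structural beta subunit, was at 11.42, 9.59, 11.29 and 11.13 in the full glands of cows 1 to 4 and at 11.34, 11.40, 10.90 and 11.21 in the empty ones. The full library of cow 2 was the lowest of all 8, while the remaining full libraries lay within or just above the empty range. The mean difference of PSMB3 was -0.36 ± 0.36, and without cow 2 it was 0.13. PSMB7, the subunit with trypsin-like activity, was at 11.29, 10.07, 11.37 and 11.14 in full gland, and at 11.34, 11.30, 11.19 and 11.28 in the empty one. Its mean of -0.31 ± 0.23 was likewise set by cow 2, at -1.23, and was 0.0016 without that cow. Of the other structural beta genes, PSMB1 differed by 0.02, PSMB2 by 0.02 and PSMB4 by -0.05 on average, and none by more than 0.24 in any cow.

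PSMB6, which carries the caspase-like site, was at 9.81, 9.86, 9.90 and 9.71 in full gland, and at 9.90, 9.87, 9.98 and 9.80 in the empty one. The 4 differences of -0.08, -0.01, -0.08 and -0.09 were small but of one sign, with a mean of -0.07 ± 0.06. PSMB5, which carries the chymotrypsin-like site, was higher in the full gland of cows 1, 2 and 3, by 0.07, 0.18 and 0.17, and lower by a log2 difference of -0.47 in cow 4. Its full library in cow 4, at 10.29, was the lowest of all 8, and the mean difference was -0.01 ± 0.13, or 0.14 without that cow. All 7 constitutive beta genes were lower in the full gland of cow 4, by -0.47 to -0.0019, where 46.8% of all genes were lower.

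Differences near or above 2-fold within an animal were seen in 4 members, all in cow 2. PSMB3, PSMB7, PSMC3 and PSMD13 differed there by -1.81, -1.23, -0.98 and -1.001, and the other 36 members by -0.57 to 0.41. The 3 members lower by 2-fold or more in cow 2 compare with 0.732% of all genes. No member was lower by that much in cows 1, 3 or 4, where 8, 5 and 3 of all 9155 genes were. PSMC3, an ATPase of the regulatory ring, was at 10.82, 9.36, 10.66 and 10.46 in full gland, and at 10.67, 10.33, 10.62 and 10.57 in the empty one. PSMD13, a subunit of the lid, was at 8.93, 7.61, 8.73 and 8.49 in full gland, and at 8.79, 8.61, 8.46 and 8.62 in the empty one. In both genes the full library of cow 2 lay below the other 7, which overlapped. Without cow 2 the mean difference was 0.03 for PSMC3 and 0.09 for PSMD13.

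**Figure D2:**
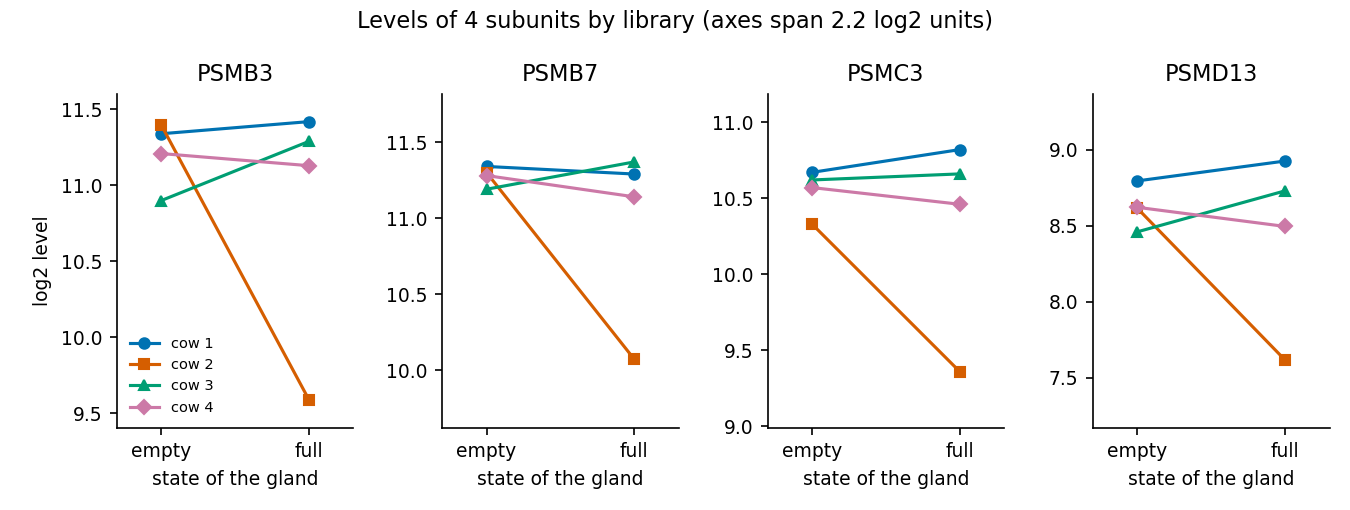
Log2 levels of PSMB3, PSMB7, PSMC3 and PSMD13 in the empty and full gland of each cow, joined within the animal. In cow 2 the full point lies below the empty one in each panel, by log2 differences of -1.81 to -0.98, and in the other 3 cows the differences run from -0.14 to 0.39.

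These 4 values of cow 2 coincided with the low 5′ signal of that library, where the GAPD control differed by -1.53 and EIF4E by -0.98. In cow 3, where the 5′ signal was higher in full gland, the same 4 genes differed by 0.39, 0.19, 0.05 and 0.27. In cow 4, where it was also higher in full gland for all 5 controls, they differed by -0.09, -0.14, -0.11 and -0.13. The position of these probe sets along their transcripts was not used here, and the part of RNA length in the result was not tested. PSME3IP1, the interactor, also had its lowest difference in cow 2, at -0.42, and was higher by 0.17 in cow 3. Members differed both ways in cow 2, where 26 of 40 were lower, against 45.8% of all genes. PSMF1 and PSMB2 were higher there by 0.41 and 0.24.

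The inducible genes PSMB8, PSMB9 and PSMB10 were higher in the full gland of cow 4 and of cow 3, and at or below the empty level in cow 1. PSMB9 was at 8.78, 8.86, 8.29 and 9.17 in full gland, and at 8.79, 8.84, 8.15 and 8.56 in the empty one. Its differences were -0.0029, 0.03, 0.14 and 0.62, so the mean of 0.19 ± 0.12, the highest of all members, came mostly from cow 4 and was 0.05 without that cow. PSMB8 was at 9.79, 9.71, 9.60 and 10.35 in full gland, and at 9.81, 9.98, 9.44 and 9.91 in empty, with differences of -0.02, -0.27, 0.16 and 0.44. PSMB10 was at 7.80, 7.79, 7.60 and 8.14 in full gland, and at 7.85, 7.87, 7.50 and 7.84 in the empty one. In all 3 genes the full library of cow 4 was the highest of the 8, the libraries of cow 3 were the lowest, and the groups overlapped. The means of PSMB8 and PSMB10 were 0.08 ± 0.12 and 0.07 ± 0.09, and without cow 4 they were -0.04 and -0.01. Each of the 3 genes had an adjusted p = 0.993 in limma.

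Leukocytes carry the immunoproteasome constitutively, and lists of their markers were read in the same libraries. Of the 9 myeloid markers measured (of 10 listed) 8 were higher in the full gland of cow 4, where 46.8% of all genes were lower. CD14 went the other way, at -0.24. The mean level of the list was higher in cow 4 by 0.73 log2, against -0.34, 0.17 and -0.06 in cows 1, 2 and 3. That mean level ranged from 8.02 to 8.95 in full and from 8.08 to 8.46 in empty libraries. The T and natural killer cell list (10 of 10 measured) was higher by 0.37 in cow 4, against -0.20, 0.17 and -0.06 in cows 1, 2 and 3. Its range was 7.15 to 7.65 in full and 7.21 to 7.57 in empty libraries. B and plasma cell markers (3 of 5 measured) were higher by 0.49 in cow 4, against -0.11, 0.07 and -0.13 in cows 1, 2 and 3. The value in cow 4 came mostly from MS4A1 (1.06), with CD79A at 0.22 and JCHAIN at 0.18. The mean level of these markers ranged from 7.91 to 8.67 in full and from 8.02 to 8.49 in empty libraries. In cow 1 the means of the leukocyte lists and the inducible genes were both lower. In cow 3 the list means were lower and the genes higher. In cow 2 the list means were higher, PSMB8 and PSMB10 lower, and PSMB9 differed by 0.03. Lower in cow 2 were 2 of 9 myeloid, 3 of 10 T and natural killer cell and 1 of 3 B and plasma cell markers. CD14 and ZAP70 differed there by -0.97 and -1.02. Some lists of other cell types had higher means in cow 4 too, the fibroblast list (5 of 5 measured) by 0.69 and the myoepithelial list (8 of 8) by 0.66. The endothelial list (3 of 3) was higher by 0.18, and the adipocyte list (2 of 3) differed by -0.01. The luminal mean was higher by 0.22, mostly from KRT8 (1.21) and KRT18 (1.36). In that list 6 of 10 genes were lower in cow 4, and the median difference was -0.01. The part of cell composition in the PSMB8, PSMB9 and PSMB10 values was not tested, and in a biopsy fewer cells of a type and less RNA per cell cannot be told apart.

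**Figure D3:**
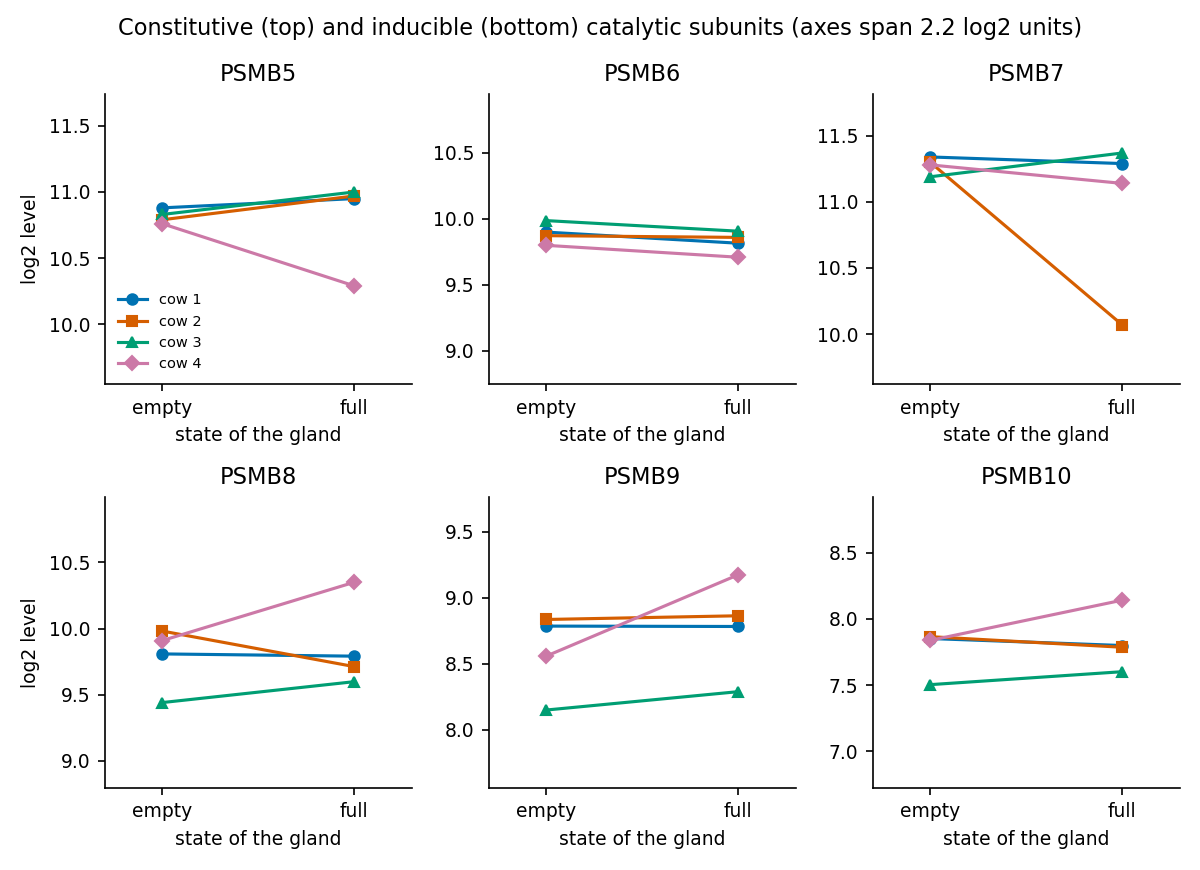
Log2 levels of the constitutive catalytic genes PSMB5, PSMB6 and PSMB7 (top) and of the inducible genes that replace them, PSMB8, PSMB9 and PSMB10 (bottom), in the empty and full gland of each cow. In cow 4 the full point lies below the empty one for PSMB5 (-0.47 log2) and above it in all 3 bottom panels (0.30 to 0.62).

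Antigen processing genes gave a mixed picture beside the immunoproteasome. On ARS-UCD2.0 the peptide transporter gene TAP1 lies between PSMB8 and PSMB9, with no other protein-coding gene between them. TAP1 differed by -0.38, 0.68, -0.16 and 0.69 in cows 1 to 4, so it was as high in cow 2 as in cow 4, whereas PSMB9 differed by 0.03 and PSMB8 by -0.27 in cow 2. Of the interferon and antigen processing list 6 of 10 genes were measured, 4 of them higher and 2 lower, and 0 passed in limma or had an unadjusted p under 0.05. TAP2, the partner of TAP1, differed by -0.17, 0.58, -0.11 and 0.31, with a mean of 0.15 ± 0.14 that was 0.01 without cow 2. B2M, the light chain of MHC class I, differed by 0.10 ± 0.08. ERAP1, which trims peptides, differed by -0.0037 ± 0.18, and TAPBP, which loads them, by -0.02 ± 0.07. The list's mean level ranged from 9.30 to 10.17 in full and from 9.41 to 9.79 in empty libraries.

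The full minus empty difference of each inducible gene was set against that of the constitutive gene it replaces, a contrast that cancels any shift shared by a whole array. PSMB9 minus PSMB6 was 0.08, 0.04, 0.22 and 0.70 in cows 1 to 4, above 0 in 4 of 4, with a mean of 0.26 ± 0.31 (SD, n = 4). The two-sided exact sign-flip permutation test over cows gave p = 0.13, the smallest that 4 cows allow, and 0.375 adjusted over the 3 pairs. PSMB8 minus PSMB5 was -0.09, -0.45, -0.01 and 0.91, with a mean of 0.09 ± 0.58 (exact p = 1). PSMB10 minus PSMB7 was -0.0085, 1.15, -0.09 and 0.44, with a mean of 0.37 ± 0.57 (exact p = 0.5), and its high value in cow 2 is the low PSMB7 of that library. With 4 cows this test cannot reach 0.05, so it does not decide whether any of the 3 pairs differed.

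The ATPases of the regulatory ring had a median difference of -0.04, with 5 of 6 genes lower, beside 51.4% of all genes. The number lower was 5, 5, 2 and 2 in cows 1 to 4. PSMC5 was at 9.89, 9.54, 9.99 and 9.77 in full gland, and at 9.97, 9.87, 10.02 and 9.79 in the empty one. It was lower in each cow, by -0.08, -0.33, -0.03 and -0.01, for a mean of -0.11 ± 0.08. PSMC6 was the only ATPase gene with a higher mean, at 0.06 ± 0.10, from -0.20 in cow 1 to 0.29 in cow 4. PSMC1 differed by -0.03 ± 0.07, PSMC2 by -0.0028 and PSMC4 by -0.05, with no difference over 0.25 in any cow.

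The 7 measured non-ATPase subunits had a median of -0.05, with 5 lower and 2 higher, beside 51.4% of all genes lower. PSMD1, one of the large scaffold subunits of the base, was at 9.87, 9.54, 10.03 and 9.95 in full gland, and at 10.16, 10.11, 9.93 and 9.86 in the empty one. It was lower in cows 1 and 2, by -0.30 and -0.57, and higher in cows 3 and 4, by 0.10 and 0.09, for a mean of -0.17 ± 0.13. PSMD11, a lid subunit, had the highest mean of this group, at 0.07 ± 0.08, with 0.28 in cow 4. PSMD14, the deubiquitinase that removes the ubiquitin chain before a substrate enters the core, differed by -0.01 ± 0.07. The ubiquitin receptor PSMD4 differed by 0.02, the scaffold PSMD2 by -0.05 and the lid subunit PSMD6 by -0.08 ± 0.07.

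The 3 members named PSMD that act as assembly chaperones of the base were all lower on average, with a median of -0.12. Of all genes 51.4% were lower. PSMD5 was at 9.72, 9.67, 9.84 and 9.43 in full gland, and at 9.66, 9.72, 10.05 and 9.91 in the empty one, and differed by 0.06, -0.05, -0.21 and -0.49. Its mean of -0.17 ± 0.11 thus leaned on cows 3 and 4, and the groups overlapped. PSMD10, also known as gankyrin, differed by -0.06 ± 0.09, with -0.32 in cow 1 and 0.10 in cow 4. With PSMD9 at -0.12, none of the 3 passed the test in limma.

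The alternative activators, which open the core without ATP, gave a median of 0.03. PSME1 and PSME2, interferon-inducible partners in one ring, lie near each other on ARS-UCD2.0 with only EMC9 between them. They differed together, by -0.09 and -0.07 in cow 1, -0.18 and -0.18 in cow 2, 0.03 and 0.15 in cow 3, and 0.12 and 0.22 in cow 4. Their means were -0.03 ± 0.08 and 0.03 ± 0.09. The same signs in each cow were seen in other members too, PSMA4, PSMC2 and PSMD1 among them. PSME4, the activator of the nucleus, differed by 0.04 ± 0.08. The inhibitor gene PSMF1 was at 9.37, 9.90, 9.43 and 9.43 in full gland, and at 9.56, 9.50, 9.44 and 9.51 in the empty one, with cow 2 alone above the rest, and differed by 0.03 ± 0.11. The chaperones of the core, PSMG1, PSMG2 and PSMG3, differed by -0.06 ± 0.07, -0.03 ± 0.09 and 0.04 ± 0.07. None of the 7 activator, inhibitor and core chaperone genes differed by more than 0.41 in any cow.

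Core and regulatory genes were then compared as classes. The median difference was -0.0039 over the 16 core genes, of which 8 were lower, and -0.05 over the 19 regulatory genes, of which 14 were lower, beside 51.4% of all genes. In cows 1 to 4 the core median was -0.05, -0.05, 0.12 and -0.0066, and the regulatory median -0.10, -0.08, 0.03 and 0.07. Both classes were below the all-gene median in cow 2 and above it in cow 3. In cow 1 both were below 0, but the core median of -0.0485 was close to the all-gene median of -0.0517. In cow 4 the core median was below the all-gene median of 0.02 and the regulatory median above it. Core minus regulatory was 0.05, 0.03, 0.08 and -0.08, so cow 4 turned the order, and the mean over cows was 0.02 ± 0.07 (SD, n = 4). Without the inducible genes the core median in cow 4 was -0.04. The classes therefore did not separate beyond the spread between animals.

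**Figure D4:**
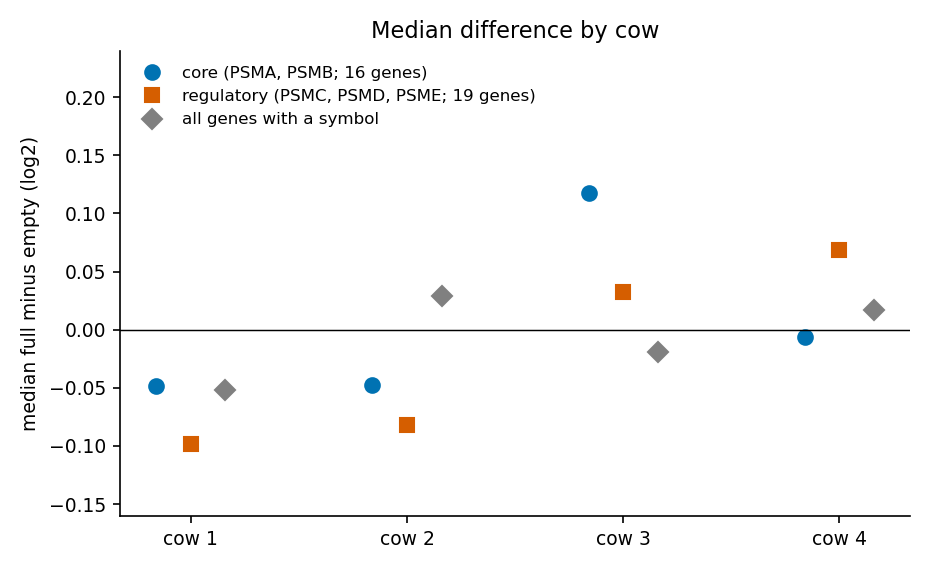
Median full minus empty log2 difference of core genes, regulatory genes and all genes with a symbol, in each of 4 cows. The core point is above the regulatory point in cows 1, 2 and 3 and below it in cow 4, and all medians lie between -0.10 and 0.12.

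The number of members lower in full gland differed from animal to animal. In cow 1, 32 of 40 members were lower in full gland, where 63.1% of all genes were. In cow 2 it was 26 of 40 against 45.8% of genes, in cow 3 14 of 40 against 55.7%, and in cow 4 18 of 40 against 46.8%. The median of the members was -0.09, -0.06, 0.04 and 0.03 in cows 1 to 4, against -0.05, 0.03, -0.02 and 0.02 for all genes. The median SD of the 4 differences was 0.18 over the members and 0.20 over all genes.

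Whether the 4 animals differed from each other was tested by an F-test on the cow coefficients in limma, which compares only these individuals. Of the members 0 passed at an adjusted p under 0.05, against 0.437% of probe sets, and 2 of 40 had an unadjusted p under 0.05, against 16.9% of genes. PSMC1 came closest, with cow means of 10.82, 10.45, 10.69 and 10.38 over both states (adjusted p = 0.221 in limma). Its full and empty levels of the same cow lay within 0.09 of each other, and cows 1 and 3 were above cows 2 and 4. PSMB9 followed with cow means of 8.78, 8.85, 8.22 and 8.87 (adjusted p = 0.287 in limma), cow 3 being the lowest. PSMD14 had cow means of 9.79, 10.11, 10.03 and 9.85 (adjusted p = 0.347 in limma), and PSME1 of 11.11, 10.96, 10.85 and 11.23 (adjusted p = 0.349 in limma). For PSMB8, PSMB9, PSMB10 and PSME1, cow 3 had the lowest mean and cow 4 the highest.

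Of the members 6 had a second probe set, which allowed a check within the array. The 2 probe sets of PSMB2 gave mean differences of 0.02 and 0.02, those of PSMC2 -0.0028 and -0.02, and those of PSMC5 -0.11 and -0.11, both of the latter lower in all 4 cows. PSMD4 gave 0.02 and -0.05. The dimmer probe set of PSMC6 gave 0.28 against 0.06, with 0.99 against 0.08 in cow 2, and that of PSMD6 gave 0.10 against -0.08, with 0.53 against -0.02 in cow 2. PSMD6 was thus lower in all 4 cows only by its brighter probe set. The disagreements of PSMC6 and PSMD6 were largest in cow 2, and the part of the low 5′ signal of its full library was not tested.

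Other genes of the ubiquitin and proteasome system were read from a list of 34 symbols, older names included, of which 21 were measured. Of these 15 were lower and 6 higher, with a median of -0.06, beside 51.4% of all genes lower. In limma 0 passed and 1 had an unadjusted p under 0.05, beside 2.8% of all genes. That gene was UBE3C, a ubiquitin ligase that binds the proteasome, which was lower in all 4 cows, by -0.11, -0.30, -0.19 and -0.13, for a mean of -0.18 ± 0.07 (adjusted p = 0.993 in limma). UCHL5, a deubiquitinase of the regulatory particle, differed by -0.09 ± 0.07 and was also lower in each cow, so that 2 of the 21 were, beside 7.11% of all genes. UBA6, a ubiquitin-activating enzyme, differed by 0.36 ± 0.24, mostly from cow 2 at 1.24, and by 0.06 without that cow. NFE2L2, the transcription factor of the oxidative stress response, was higher by 0.13 ± 0.11, by 0.34 in both cows 2 and 4 and not in cows 1 and 3.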

How the data were processed

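Per the submitters' processing notes, the authors made the deposited values with RMA, which corrects background, quantile-normalizes arrays and summarises probes. The log2 scale of the deposited values was read from their range. Quantile normalization hides a shift shared by most genes, and arrays have no read depth, so their number limits precision.

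The table held 24016 probe sets after 112 platform controls were left out. Each gene was represented by the probe set with 1 symbol and the highest mean over 8 arrays. State and cow were fitted to all probe sets with lmFit and eBayes of limma 3.58.1 (R 4.3.3), as a two-sided test, with Benjamini-Hochberg adjustment over all of them and a threshold of 0.05. Each cow gave both states per the labels, and deviations from group means correlated at 0.319 to 0.597 within a cow and at -0.03 or less between cows. Centring on group means pushes the values between cows below 0, so they are no separate evidence of the pairing. A simulation with known changes was used to test the model. Tables were made with pandas 2.3.3 in Python 3.11.15.

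The members and gene lists were chosen with earlier results of these data known. The rule named the 5 members with the smallest unadjusted p in each direction, the catalytic subunits, all PSME, PSMF and PSMG genes, 4 members by the test between cows, and up to 2 genes per direction of the ubiquitin and the interferon list. PSMB3, PSMC3, PSMD6, PSMD13, TAP1 and all remaining members were picked for naming once their values had been seen. The alternatives dropped the replicate block, made it random, centred each array on its median, repeated the quantile normalization, or used brighter probe sets only, an intensity trend with a robust prior, array weights, probe sets averaged per gene, all but 1 replicate in turn, or only cows 1 and 3. RefSeq ARS-UCD2.0 was used only for gene names and for which genes neighbour each other, and sequences were not used here.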

Additional observations from a re-analysis of the deposited data

Results flagged for a closer look

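Among the 117 groups of 4 values (full, empty and difference for 39 members, without PSME3IP1), 10 held a value farther from the others than Dixon's 95% limit, where chance alone flags about 1 in 20. Of these 7 belonged to cow 2. In full gland its PSMA7 (11.26), PSMB2 (10.70) and PSMF1 (9.90) lay above the remaining cows, and its PSMB3 (9.59) below them. In full minus empty, PSMA3 of cow 2 was at -0.39, PSMB4 at 0.11 and PSMB6 at -0.0126. The remaining 3 were PSMB5 in the full gland of cow 4 (10.29), PSMB10 in the empty gland of cow 3 (7.50) and the difference of PSMD6 in cow 1 (-0.20). The full library of cow 2 is the one with the low 5′ signal, and its part in these values was not tested.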

How the results depend on the processing

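No probe set and no proteasome gene passed the comparison of full with empty gland under any of the 13 alternatives, and 0 members had an unadjusted p under 0.05 in each of them. The fit with no replicate block (unpaired) also gave 0 members, and the smallest adjusted p of a member ranged from 0.577 to 0.9999 in limma. The number of members lower in full gland ranged from 18 to 30. UBE3C is too dim to have a value among the brighter probe sets.

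The sign of small means turned often, and the cause was not tested. The larger means of PSMB3, PSMB7, PSMC3 and PSMD13 also turned when cow 2 was left out. The core median was 0.0226 with array weights, 0.0108 after repeated quantile normalization and 0.0133 without cows 2 and 4. With 1 cow left out it ran from -0.0244 to 0.0316 and the regulatory median from -0.0822 to 0.0056, while core minus regulatory, 0.0425 over all cows, ran from 0.00282 (without cow 1) to 0.0583 and stayed above 0 under the alternatives run for it. Between cows 1 and 3 alone, 1 member passed the test between cows (PSMB9, adjusted p = 0.0162 in limma). Over all cows the adjusted p of PSMB9 in that test was 0.287 in limma. The share of all probe sets that passed between cows 1 and 3 is not given here, so the count cannot be set against it.

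With array weights PSMA1 was 0.0293, PSMA6 0.0108, PSMA7 -0.0273, PSMB2 -0.0145, PSMB3 0.016, PSMB5 0.037, PSMC2 0.0361, PSMD13 0.0448, PSME3IP1 0.0349 and PSMF1 -0.0302. After median centring PSMA7 was -0.0172, PSMB1 -0.00187 and PSMD4 -0.00215, with probe sets averaged PSMD4 was -0.0173 and PSMD6 0.0127, and after repeated quantile normalization PSMA6 was 0.00745 and PSMC2 0.0031.

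Without cows 2 and 4, PSMA1 was 0.0221, PSMA4 -0.0063, PSMA6 0.0035, PSMA7 -0.0637, PSMB2 -0.0649, PSMB3 0.236, PSMB5 0.12, PSMB7 0.0711, PSMC2 0.0271, PSMC3 0.0973, PSMC6 -0.059, PSMD4 -0.0286, PSMD13 0.201, PSME3IP1 0.0481, PSME4 -0.0395 and PSMF1 -0.0966. Of the listed genes, UBA6 was -0.119, NFE2L2 -0.0709, B2M -0.0202 and TAP2 -0.138. PSMB8 minus PSMB5 was -0.0501 and PSMB10 minus PSMB7 -0.0484, alternatives added after seeing the data.

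With 1 cow left out, the following means changed sign in at least 1 case, over these ranges. PSMA6 ranged from -0.0494 to 0.0131, PSMC2 from -0.0521 to 0.0267, PSMC4 from -0.145 to 0.0056, PSMD2 from -0.112 to 0.0191 and PSMD10 from -0.115 to 0.025. PSMD14 ranged from -0.0423 to 0.0282, PSMG2 from -0.107 to 0.0223, ERAP1 from -0.23 to 0.116, PSMA1 from -0.0976 to 0.102 and PSMA7 from -0.0668 to 0.0452. PSMB2 ranged from -0.047 to 0.0778, PSMB3 from -0.604 to 0.129, PSMB7 from -0.47 to 0.0016, PSMC3 from -0.348 to 0.027 and PSMD4 from -0.0267 to 0.0528. PSMD13 ranged from -0.332 to 0.0919, PSME1 from -0.0822 to 0.018, PSME3IP1 from -0.13 to 0.0666, PSMF1 from -0.0909 to 0.106 and PSMA4 from -0.0774 to 0.099. PSMB1 ranged from -0.025 to 0.0615, PSME2 from -0.0362 to 0.0981, PSMB5 from -0.0779 to 0.141, PSMB8 from -0.0431 to 0.193 and PSMB10 from -0.0116 to 0.117. PSMC6 ranged from -0.0124 to 0.151, PSME4 from -0.0017 to 0.115, TAPBP from -0.0393 to 0.00497 and PSMB8 minus PSMB5 from -0.184 to 0.271.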
